A study of Homo sapiens with 6 samples.

Results

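LCN2 encodes lipocalin-2, also called NGAL, and its mRNA rose from a middling to a very high level in SW480 cells treated for 24 h with MPM-1. It is 1 of the 12982 genes measured in the experiment. It was chosen on the values described here, its counts and FPKM in the 3 MPM-1 libraries against the 3 DMSO libraries, because its rise was the largest of any gene that could be measured in the control cells. That rise is therefore given as a description, without a test.

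RNA sequencing was carried out on SW480, an established human colorectal adenocarcinoma cell line, in 3 libraries of cells given DMSO, the solvent control, and 3 of cells given MPM-1. MPM-1 is a fluorescent small molecule that accumulates in mitochondria, and the sample titles call it WT4. Both treatments lasted 24 h in the same serum-containing medium, all cells carry the genotype label WT, and the dose of MPM-1 in this experiment is not named in the sources used here. The labels do not say whether the 3 libraries of a treatment came from separate cultures, so the p-values below measure only the spread between these libraries, which may be technical.

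Lipocalin-2 is a small secreted protein with a cup-shaped binding pocket. It captures iron-loaded bacterial siderophores and so withholds iron from bacteria, and it was first purified from neutrophil granules. Epithelial cells make it when inflamed or injured, and its transcription is known to be driven by NF-κB together with its cofactor IκBζ and by C/EBP factors, downstream of interleukin-1 and interleukin-17.

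The gene, ENSG00000148346, lies on the plus strand at chr9:128149071-128153455 of GRCh38, as GENCODE release 29 places it. No other annotated gene overlapped it. The annotation gives it 7 transcripts. The protein-coding transcript LCN2-201 starts at position 128149453, has 7 exons and 822 nucleotides, and codes over 594 of them. LCN2-203 has 848 nucleotides and starts farther upstream, at 128149071, so that its first exon ends at 128149264. The sequence between that exon and the start of LCN2-201 is shown because it holds the stretch that resembles a binding site of NF-κB, the best-known inducer of the gene. It comes from RefSeq (GRCh38.p14, chr9:128149265-128149452, plus strand, 188 bases), is written 5′ to 3′, and the capitals mark the letters of the κB-like stretch.

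LCN2 promoter: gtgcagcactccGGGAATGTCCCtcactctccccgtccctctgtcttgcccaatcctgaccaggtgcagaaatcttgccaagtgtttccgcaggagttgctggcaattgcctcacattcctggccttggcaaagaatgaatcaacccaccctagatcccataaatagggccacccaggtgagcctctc

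The 250 bases before the start of LCN2-201 were searched on both strands for 5 short motifs. The κB motif GGGNNNNNCC matched at 2 overlapping positions, which begin 176 and 175 bases before the start and together make up the stretch in capitals. A match to the same letters was present in 54.4% of 35116 promoters of that length, so it does not set LCN2 apart. The C/EBP-like motif TTNNGNAA matched once, as ttgcccaa, 143 bases before the start, and 33.2% of promoters held a match. The exact letters TATAAA had no match in LCN2 against 10.7% of promoters. The printed sequence does hold cataaa, which differs from them in the first letter only, and such near matches were not counted. The STAT-like motif TTCNNNGAA had no match against 6.57%, and TGACNNNGC, the antioxidant response motif, none against 10.9%. These are matches of letters in 1 window and no measurement of binding.

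In DMSO the 3 libraries held 140, 149 and 112 LCN2 counts. After MPM-1 they held 17721, 17437 and 17681 counts. The totals of the libraries were alike, 32095456 to 40269820 counts in DMSO and 31733667 to 35403841 after MPM-1. In CPM (counts scaled by library size and TMM factor) the DMSO values were 4.24, 3.45 and 2.81 CPM, with 95% Poisson intervals of 3.57 to 5.01, 2.92 to 4.05 and 2.32 to 3.38. The MPM-1 values were 582, 567 and 527 CPM, with intervals of 573 to 590, 559 to 576 and 519 to 535. All 3 MPM-1 libraries thus lay far above all 3 DMSO libraries, and no interval of one treatment overlapped any of the other. LCN2 was chosen by these same counts, so this separation is a description and no independent result. The intervals cover counting error only, since the reads carried no molecular identifiers and are not independent molecules.

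The mean was 3.50 ± 0.718 CPM (SD, n = 3) in DMSO and 558 ± 28.5 CPM (SD, n = 3) after MPM-1. The fitted log2 fold change was 7.32 ± 0.15 (SE), a 160-fold difference. Taking any MPM-1 library against any DMSO library, the ratio of CPM lay between 124 and 207. LCN2 took between 0.000298 and 0.000436% of all counts of a DMSO library and between 0.0499 and 0.0549% of an MPM-1 library. The experiment measured whole cultures, in which more cells expressing a gene and more RNA per cell cannot be told apart.

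FPKM, the authors' values per length and library size, gave the same picture and allow LCN2 to be set beside other genes. LCN2 was at 5.13, 4.31 and 3.49 FPKM in the DMSO libraries and at 638, 646 and 587 FPKM in the MPM-1 libraries. The means were 4.31 ± 0.817 (SD, n = 3) and 624 ± 31.9 FPKM (SD, n = 3), a ratio of 145. A transcript length of 848 to 858 nucleotides follows from dividing count by FPKM and library size, against the 848 and 822 nucleotides of the transcripts described above.

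The libraries of one treatment were about as variable for LCN2 as for genes of like level. In DMSO the coefficient of variation of its CPM was 20.5%, and the 1164 other genes within 1.5-fold of its level had a median of 18.3% (interquartile range 11.4 to 26.1%). After MPM-1 it was 5.11%, and the 220 genes within 1.5-fold had a median of 5.40% (3.57 to 8.97%). LCN2 was therefore neither unusually noisy in the control cells nor unusually tight after MPM-1.

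**Figure D1:**
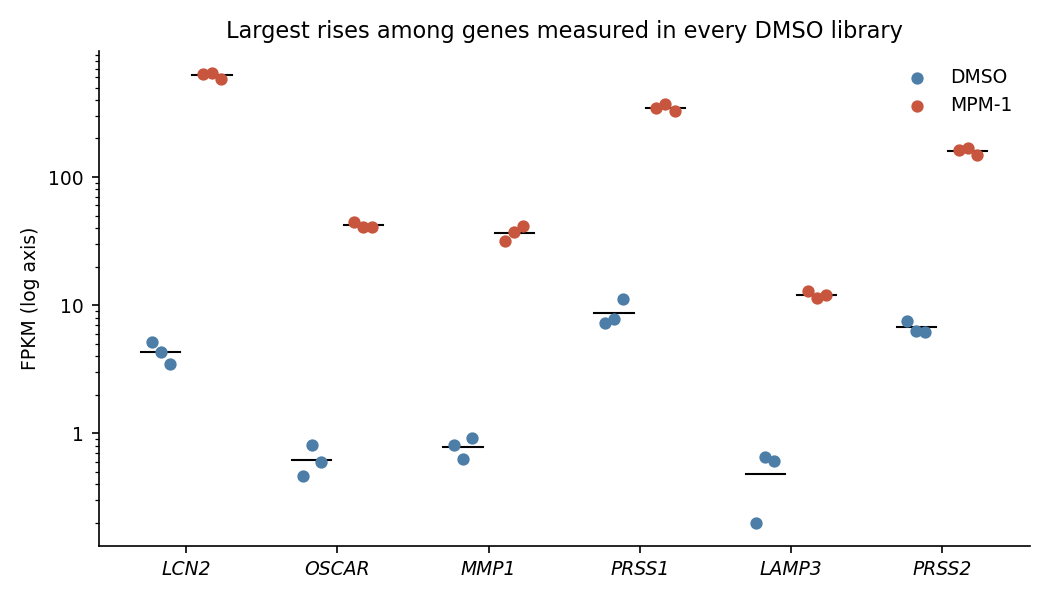
FPKM (log axis) of LCN2 and of the 5 next largest rises among genes with more than 3 counts in every DMSO library, with 1 point per library (blue DMSO, red MPM-1, 3 each) and a bar at the mean. LCN2 moved from a mean of 4.31 to 624 FPKM and ended above the other 5 genes, of which PRSS1 came closest at 348 FPKM.

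Before treatment LCN2 was an unremarkable gene among those measured, all of which had at least 115 counts in total over the 6 libraries. Its mean level in DMSO ranked 8234 of 12982, with 36.6% of genes below it and a median gene at 7.60 FPKM. Its neighbours in that order were ATG14 at 4.32 ± 0.172 FPKM (SD, n = 3) and MIOS at 4.32 ± 0.406 just above, and SLC7A6 at 4.31 ± 0.987 and UMPS at 4.31 ± 0.541 just below. None of the 4 neighbours differed from LCN2 beyond the spread, and the range of its 3 DMSO libraries overlapped that of 1833 genes. LCN2 was thus detectably transcribed in the control cells, but its place among genes of like level was not resolved.

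After MPM-1 it ranked 138 of 12982, with 98.9% of genes below it, and the single libraries placed it at 138, 134 and 144. The genes beside it were C6orf48 at 634 ± 38.8 FPKM (SD, n = 3) and MYL12A at 626 ± 28.2 above, and RPL9, a protein of the large ribosomal subunit, at 620 ± 34.8 and MYL12B at 617 ± 21.4 below. MYL12A and MYL12B encode near-identical myosin light chains, so reads could be split between them by the authors' counting. All 4 ranges overlapped that of LCN2, and 20 genes in all did so, between ranks 125 and 154. Its place among the other genes was thus far more narrowly set than in DMSO.

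Only 753 genes reached 100 FPKM after MPM-1, and 3 of these had been below 10 FPKM in DMSO, namely LCN2 and the trypsinogen genes PRSS1 and PRSS2. PRSS1 stood at 7.30, 7.77 and 11.1 FPKM in the DMSO libraries and at 345, 370 and 330 FPKM in the MPM-1 libraries. PRSS2 stood at 7.56, 6.32 and 6.22 against 163, 168 and 150 FPKM. Both pairs of groups were wide apart, but the trypsinogen genes are close copies of each other and of pseudogenes, so how their reads were divided is uncertain. With the limit in DMSO raised 3-fold, the genes that joined them included ANXA1, the phospholipid-binding annexin A1 (29.7 ± 4.05 against 314 ± 47.6 FPKM, SD, n = 3), UPP1, uridine phosphorylase, and SDCBP2.

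**Figure D2:**
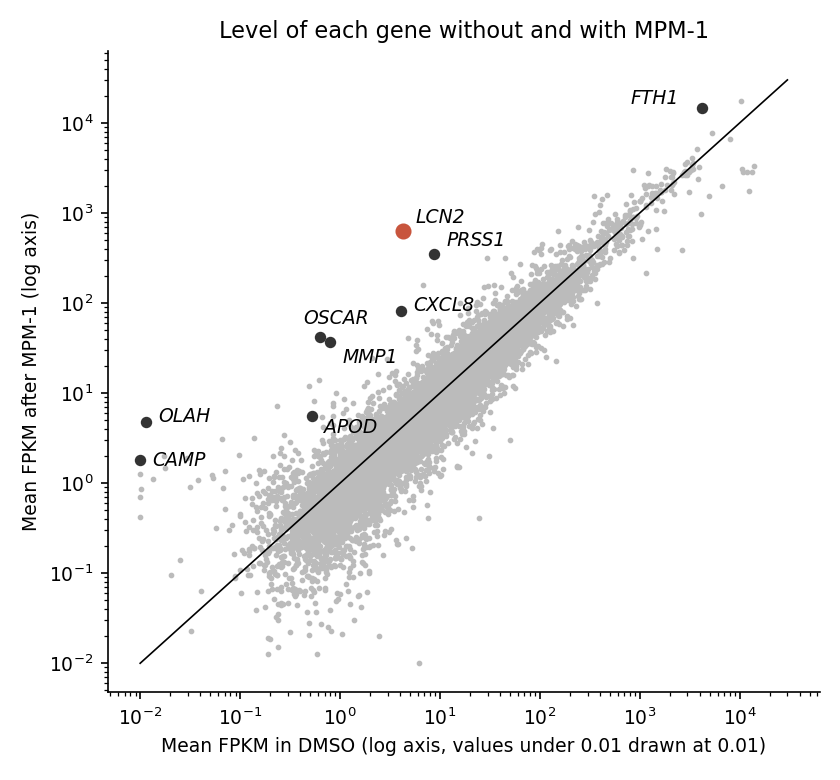
Mean FPKM of each of the 12982 genes in DMSO (horizontal) and after MPM-1 (vertical), both on log axes with values under 0.01 drawn at 0.01, and a line at equal levels. LCN2 (red) lies at 4.31 and 624 FPKM, above the cloud of genes, while FTH1 sits at the top right close to the line and CAMP and OLAH at the left edge.

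In the order of fitted log2 fold changes over all genes LCN2 came at rank 7. The 6 genes above it had at most 3 counts in each DMSO library, and at most 345 counts in an MPM-1 library, so that their folds are known only as lower bounds against 3 counts per library. OLAH, a thioesterase that releases fatty acids from fatty acid synthase, was at least 111-fold higher and NewGene_8386 at least 68.6-fold higher. KLHDC7B was higher by at least 40.3-fold and CASP5, an inflammatory caspase, by at least 25.9-fold. CAMP, the antimicrobial cathelicidin, was higher by at least 18.9-fold, and for NICN1 the bound was at least 15.5-fold. None of these bounds reaches the 160-fold of LCN2, but a lower bound cannot show that the fold itself was smaller. Whether LCN2 rose more than these 6 genes is therefore not known. Each of the 6 was called higher by edgeR's quasi-likelihood test. All genes measured had at least 115 counts in total, so these 6 were among them only through their MPM-1 counts. Their calls are therefore no independent result. The NICN1 counts may belong to AC104452.1, which overlaps it on the same strand and is also among the genes measured.

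Just below LCN2 came EBF2, NewGene_2479, MOV10L1, OSCAR and MMP10. EBF2, a transcription factor, had 6, 4 and 0 counts in DMSO and 436, 305 and 331 after MPM-1, and MMP10, a secreted stromelysin, had 0, 1 and 6 against 126, 111 and 112. OSCAR, an immunoglobulin-like receptor known from osteoclasts, was the first of these with counts well above the limit in every DMSO library.

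Of the 12937 genes with more than 3 counts in every DMSO library LCN2 had the largest rise. It was followed by OSCAR, from 0.625 ± 0.174 to 42.2 ± 2.40 FPKM (SD, n = 3; log2 fold change 5.96), and MMP1, the interstitial collagenase, from 0.785 ± 0.148 to 36.8 ± 4.82 FPKM (5.70). PRSS1 (5.46), LAMP3, a lysosomal membrane protein (4.76), and PRSS2 (4.74) came next. The step from LCN2 to OSCAR, 7.32 to 5.96, was larger than any step between these 5 genes. The first place of LCN2 in this order was chosen from these same values and is no independent result.

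Over all genes, a gene was called higher or lower where its Benjamini-Hochberg adjusted p-value in edgeR's quasi-likelihood test was under 0.01 and its log2 fold change reached 1 in either direction. By this rule 725 genes (5.58%) were called higher and 1136 (8.75%) lower. Among the genes called higher 29 had a log2 fold change of at least 4 and 16 of at least 5. In CPM, every MPM-1 library lay above every DMSO library for 4024 of the 12982 genes and below for 4317. Groups that do not overlap were thus common and do not set a gene apart. The shares of genes called are the background for every count below.

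Because LCN2 began low, its gain in absolute level was less extreme than its fold. It gained 619 FPKM, which ranked 26 of 12982. FTH1, the heavy chain of the iron store ferritin, gained the most, 10454.1 FPKM, and FTL, the light chain, followed with 7221.6. EEF1A1, the translation elongation factor, the stress cytokine gene GDF15 and TPT1 came next. LCN2 made up 0.628% of the summed CPM gain of all genes called higher.

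The lipocalin family did not move as a whole. Of 19 lipocalin genes other than LCN2, 5 were measured, 1 was called higher and none lower, against 5.58% and 8.75% of all genes, and their median log2 fold change was 0.10 beside -0.03 over all genes. The riser was APOD, apolipoprotein D, a lipocalin that carries small lipids and is known from stressed and resting cells. Its counts were 22, 20 and 25 in DMSO against 232, 222 and 192 after MPM-1. The groups did not overlap, and its log2 fold change was 3.55 ± 0.26 (SE; adjusted p = 6.29e-06, edgeR's quasi-likelihood test, Benjamini-Hochberg). APOD nevertheless ended at 5.55 ± 0.799 FPKM (SD, n = 3), near the level from which LCN2 started. APOM and RBP4, carriers of sphingolipid and of retinol in blood, PTGDS, which makes prostaglandin D, and AMBP, the precursor of another plasma lipocalin, had log2 fold changes between -0.63 and 0.16 and were not called.

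The intracellular relatives of the lipocalins, small fatty acid and retinoid carriers, were not called either. FABP3 stood at 62.5 ± 6.88 against 72.1 ± 5.99 FPKM, CRABP2 at 321 ± 13.2 against 322 ± 12 and FABP5 at 51.3 ± 5.73 against 31.4 ± 3.37 (SD, n = 3). FABP5 had a log2 fold change of -0.55 ± 0.11 (SE) and missed the fold limit.

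Of 6 receptors and partners of the protein 1 was measured. BDH2, which makes a mammalian siderophore that lipocalin-2 can carry, stood at 30.0, 30.7 and 35.3 FPKM in DMSO and at 26.5, 25.1 and 26.5 FPKM after MPM-1. It was not called, with a log2 fold change of -0.15 ± 0.09 (SE). The cell surface receptors SLC22A17 and LRP2 and the protease MMP9, which lipocalin-2 binds, were not analysed here.

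Among the regulators of LCN2 transcription 21 of 24 genes were measured, 5 were called higher (23.8%) and 1 lower (4.76%), with a median log2 fold change of 0.35. The shares over all genes were 5.58% and 8.75%, with a median of -0.03. The 5 were ELF3, RELB, NFKBIB, CEBPG and NFKBIZ, and the 1 that fell was CEBPA. ELF3, an epithelial ETS factor, stood at 18.1, 15.3 and 17.3 FPKM in DMSO and at 48.8, 45.2 and 51.7 FPKM after MPM-1. Every MPM-1 library was above every DMSO library, and the log2 fold change was 1.58 ± 0.10 (SE; adjusted p = 3.06e-06, edgeR's quasi-likelihood test, Benjamini-Hochberg).

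The NF-κB subunits moved unequally. RELB, a subunit of the alternative pathway, was at 8.63, 6.36 and 6.34 FPKM in DMSO and at 20.6, 16.0 and 17.9 FPKM after MPM-1, with a log2 fold change of 1.51 ± 0.16 (SE; adjusted p = 4.77e-05, edgeR's quasi-likelihood test, Benjamini-Hochberg). NFKB2, its usual partner, was at 19.6 ± 1.78 against 31.4 ± 2.47 FPKM (SD, n = 3) and was not called, with a log2 fold change of 0.86. RELA and NFKB1, the subunits of the classical pathway, had log2 fold changes of 0.37 ± 0.11 and -0.37 ± 0.13 (SE) and were not called, nor was REL at 0.08 ± 0.17. RELB was thus the only one of the 5 subunit genes to pass.

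The inhibitors and cofactors also differed. NFKBIB, an inhibitor that holds NF-κB in the cytoplasm, rose from 7.41 ± 1.13 to 17.6 ± 1.34 FPKM (SD, n = 3), with a log2 fold change of 1.47. NFKBIA, the better-known inhibitor and itself a target of NF-κB, was not called at 0.40 ± 0.08 (SE). NFKBIZ, which encodes the cofactor IκBζ, was at 1.30, 1.53 and 1.48 FPKM in DMSO and at 2.17, 3.03 and 2.75 FPKM after MPM-1. The groups did not overlap, but the log2 fold change of 1.02 ± 0.18 (SE) passed the limit only narrowly, and it fell short of a call at 0.58 to 0.99 in 7 of 15 alternative settings, among them without DMSO replicate 1 and without MPM-1 replicate 2 or 3. BCL3 (0.18 ± 0.10), STAT3 (0.12 ± 0.11) and ZC3H12A (0.35 ± 0.19, SE), which encodes an RNase that degrades inflammatory transcripts, were not called.

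Of the C/EBP genes CEBPA fell and CEBPG rose. CEBPA was at 13.2, 15.2 and 12.9 FPKM in DMSO and at 4.31, 6.61 and 5.30 FPKM after MPM-1, with all MPM-1 libraries lower and a log2 fold change of -1.19 ± 0.14 (SE; adjusted p = 0.000106, edgeR's quasi-likelihood test, Benjamini-Hochberg). CEBPG, which pairs with other C/EBP proteins and with ATF4, was at 21.8 ± 0.255 against 43.5 ± 1.67 FPKM (SD, n = 3), and its log2 fold change of 1.15 dropped to between 0.96 and 1.00 and out of the calls in 4 settings, library size alone and limma with each pseudocount. CEBPB, the C/EBP factor most often tied to inflammation, was at 53.0, 40.2 and 42.3 FPKM against 64.5, 70.6 and 75.2 FPKM, which do not overlap, but its log2 fold change of 0.78 ± 0.12 (SE) missed the limit. CEBPD was not analysed here.

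**Figure D3:**
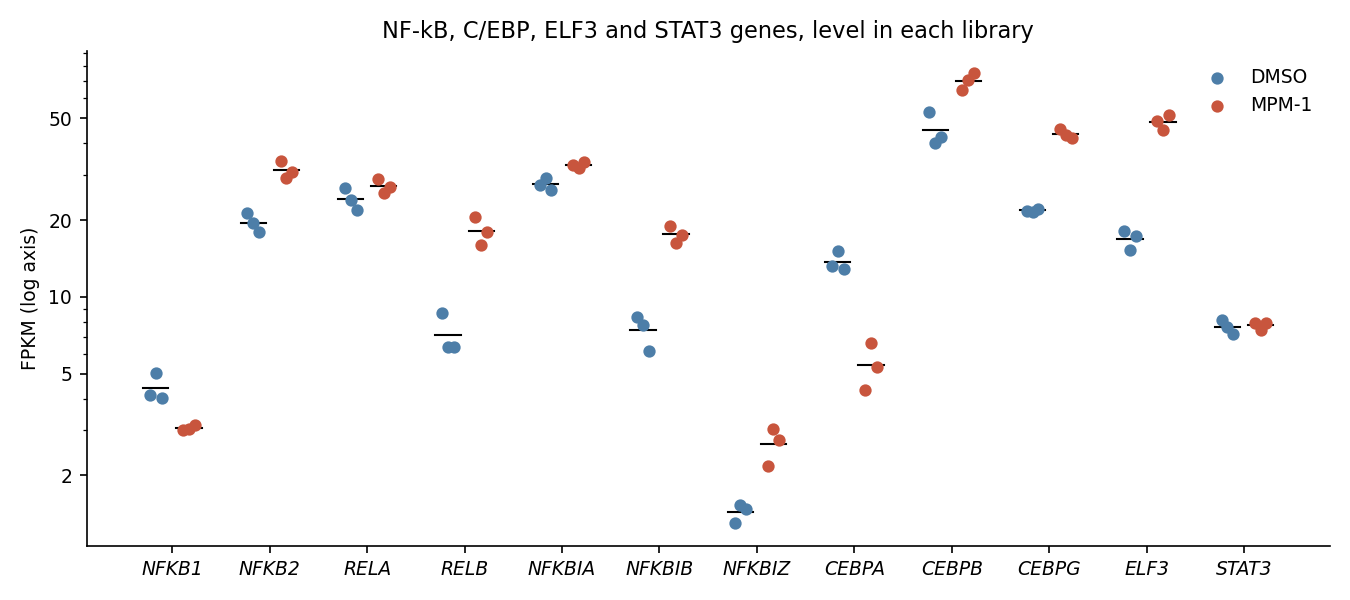
FPKM (log axis) of 12 genes of the NF-κB and C/EBP families, ELF3 and STAT3 in each library, with 1 point per library (blue DMSO, red MPM-1, 3 each) and a bar at the mean. ELF3, RELB, NFKBIB, CEBPG and NFKBIZ lie higher after MPM-1, CEBPA lies lower, and STAT3 is level with log2 fold change 0.12.

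Of 34 cytokines, receptors and adaptors known to act upstream of LCN2, 20 were measured, 2 were called higher (10.0%) and 1 lower (5.00%), with a median log2 fold change of 0.22. The shares over all genes were 5.58% and 8.75%, with a median of -0.03. IL1A, the gene of interleukin-1α, stood at 0.119, 0.237 and 0.386 FPKM in DMSO and at 0.473, 0.940 and 1.06 FPKM after MPM-1. It rests on 9 to 32 counts in the DMSO libraries and was called at a log2 fold change of 1.84 ± 0.46 (SE). Limma and the filter at a mean of 50 counts did not test it. In 5 of the other settings its call was lost at 1.54 to 1.80, among them without DMSO replicate 1 or 2 and without MPM-1 replicate 2 or 3. LIF, a cytokine of the interleukin-6 family, rose from 13.1 ± 0.600 to 27.1 ± 4.23 FPKM (SD, n = 3), a log2 fold change of 1.2.

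No receptor of these cytokines was called higher. IL1R1, the signaling receptor of interleukin-1, fell from 1.72, 2.01 and 1.61 FPKM in DMSO to 0.359, 0.369 and 0.510 FPKM after MPM-1. Its log2 fold change was -1.60 ± 0.22 (SE; adjusted p = 0.000238, edgeR's quasi-likelihood test, Benjamini-Hochberg). The interleukin-17 receptor chains IL17RA and IL17RC, at -0.05 ± 0.14 and -0.23 ± 0.13 (SE), and TNFRSF1A, the main receptor of tumor necrosis factor, at 0.27 ± 0.09, were not called. IL6R, the interleukin-6 receptor, had a log2 fold change of 0.96 ± 0.14 (SE) and was called only without MPM-1 replicate 1, at 1.02. The interleukin-1 antagonist IL1RN, at 0.71 ± 0.18, and MYD88, the adaptor of the interleukin-1 and Toll-like receptors, at -0.25 ± 0.12, were not called either.

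Genes that epithelia express beside LCN2 in defence and in the acute phase moved in both directions. Of 46 such genes 17 were measured, and 7 were called higher (41.2%) and 7 lower (41.2%), against 5.58% and 8.75% of all genes. Those higher were CAMP, SERPINA3, CXCL8, IL32, NUPR1, SLPI and SERPINA1, and those lower were CXCL3, TNFAIP2, PLA2G2A, NOS2, LGALS9, CXCL1 and C3. The median log2 fold change of the 17 was 1.31.

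CXCL8, the neutrophil-attracting chemokine interleukin-8, was at 4.68, 3.37 and 4.23 FPKM in DMSO, close to the level of LCN2, and at 86.5, 93.4 and 66.1 FPKM after MPM-1. Its log2 fold change was 4.48 ± 0.17 (SE; adjusted p = 2.36e-07, edgeR's quasi-likelihood test, Benjamini-Hochberg). Of the other neutrophil-attracting chemokines CXCL3 and CXCL1 fell. CXCL3 was at 6.66, 5.29 and 4.34 FPKM against 0.385, 0.618 and 1.15 FPKM, and CXCL1 at 2.45 ± 0.208 against 0.738 ± 0.0620 FPKM (SD, n = 3). CXCL2 was at 1.03, 0.670 and 0.836 FPKM against 0.179, 1.35 and 0.222 FPKM, which overlap, and was not called. CXCL1, CXCL2 and CXCL3 are close copies among which reads may be shared.

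CAMP, whose cathelicidin peptide kills bacteria, had 0 counts in every DMSO library and 51, 38 and 52 after MPM-1. It was thus among the genes measured only through its MPM-1 counts, and its call is no independent result. SERPINA3, the acute phase protease inhibitor α1-antichymotrypsin, had 1, 2 and 10 counts against 170, 163 and 179, and a protein-coding gene on the same strand overlaps it. SLPI, an inhibitor of neutrophil elastase made by mucosal epithelia, rose from 34.9 ± 2.82 to 81.1 ± 8.38 FPKM, and SERPINA1, α1-antitrypsin, from 24.6 ± 0.829 to 58.2 ± 5.42 FPKM (SD, n = 3). IL32, a cytokine of epithelia and lymphocytes, rose from 19.3 ± 7.62 to 87.9 ± 1.39 FPKM, and NUPR1, a stress-induced nuclear protein, from 10.4 ± 0.0479 to 35.6 ± 3.24 FPKM.

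Several classical companions of LCN2 in inflamed epithelium fell. NOS2, the inducible nitric oxide synthase, was at 0.406, 0.537 and 0.719 FPKM in DMSO and at 0.0532, 0.0918 and 0.113 FPKM after MPM-1, with a log2 fold change of -2.46 ± 0.39 (SE; adjusted p = 0.000519, edgeR's quasi-likelihood test, Benjamini-Hochberg). PLA2G2A, a secreted phospholipase that kills bacteria, fell from 6.18 ± 1.29 to 0.941 ± 0.522 FPKM, and TNFAIP2 from 1.14 ± 0.0767 to 0.156 ± 0.0468 FPKM (SD, n = 3). C3, the central complement protein, was low in both treatments (0.435 ± 0.0361 and 0.155 ± 0.0338 FPKM), and its call was lost at -1.34 to -1.22 without DMSO replicate 3 or without MPM-1 replicate 2 or 3. LGALS9, a galectin, lost its call at -1.84 to -1.47 without DMSO replicate 1 or 3 or without MPM-1 replicate 2 or 3. TNFAIP3, a brake on NF-κB that is one of its targets, was at 0.261 ± 0.181 against 0.644 ± 0.102 FPKM and was called higher only with DESeq2 and without DMSO replicate 3, at 1.47 to 2.05. S100A8, S100A9, SAA1 and LTF were not analysed here.

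**Figure D4:**
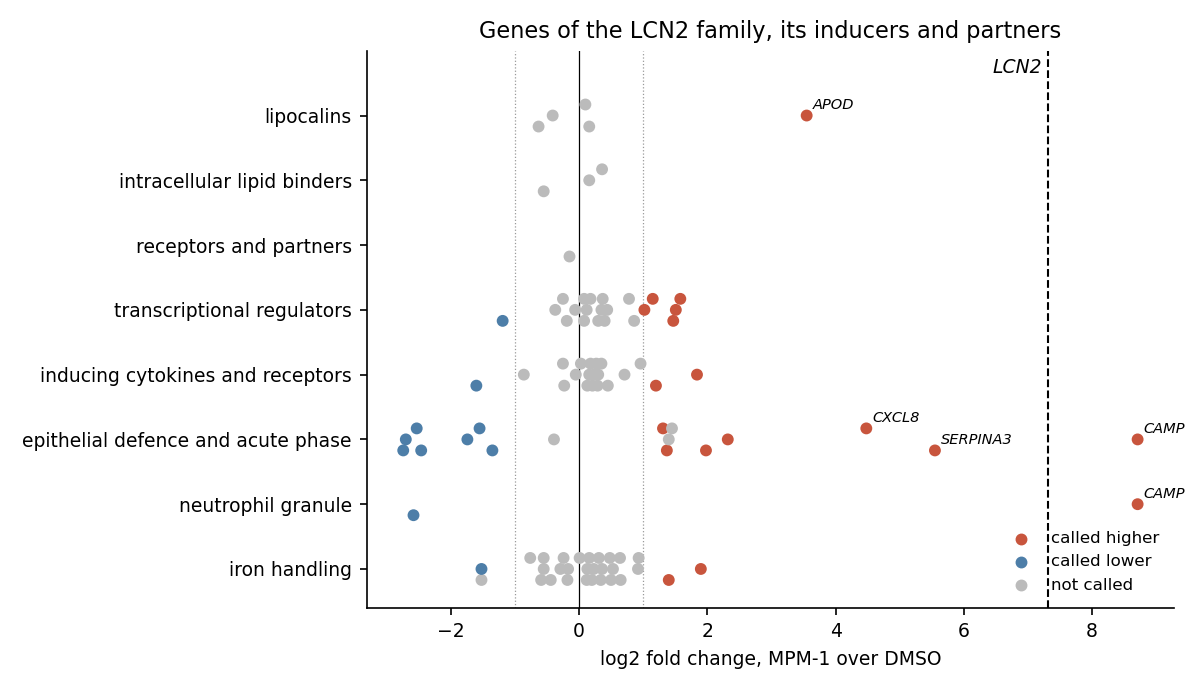
log2 fold change of each measured gene in 8 lists around LCN2, with genes called higher in red, called lower in blue and not called in gray, dotted lines at -1 and 1 and a dashed line at the 7.32 of LCN2. CAMP, which stands in 2 lists and had 0 counts in DMSO, is the 1 gene to the right of LCN2, and the lipocalin nearest to LCN2 is APOD at 3.55.

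Lipocalin-2 is stored in blood in the granules of neutrophils, and of 25 granule and surface genes of these cells 2 were measured. CAMP, also made by epithelia, rose as given above, and PRTN3, proteinase 3, fell from 2.51, 2.13 and 2.43 FPKM to 0.353, 0.347 and 0.335 FPKM, a log2 fold change of -2.58 ± 0.31 (SE; adjusted p = 0.000108, edgeR's quasi-likelihood test, Benjamini-Hochberg). The other 23, among them MPO, ELANE and the general leukocyte gene PTPRC, were not analysed here. The summed level of the 2 measured genes was 2.13 to 2.51 FPKM in DMSO and 1.88 to 2.37 FPKM after MPM-1, and the ranges overlapped.

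Iron handling genes were called higher about as often as all genes, and the gene with the largest gain in FPKM was among them. Of 33 genes 29 were measured, 2 were called higher (6.90%) and 1 lower (3.45%), against 5.58% and 8.75% of all genes. Their median log2 fold change was 0.16. FTH1 was at 4540.5, 3902.1 and 4042.1 FPKM in DMSO and at 15348.5, 13828.1 and 14670.3 FPKM after MPM-1. No library overlapped, and the log2 fold change was 1.90 ± 0.07 (SE; adjusted p = 2.44e-07, edgeR's quasi-likelihood test, Benjamini-Hochberg). FTL was at 10255.7 ± 811 against 17477.3 ± 548 FPKM (SD, n = 3) and with a log2 fold change of 0.92 ± 0.08 (SE) missed the limit. Both ferritin genes have many processed pseudogenes, whose reads the authors' counting may have shared with them, and BEST1 overlaps FTH1 on the other strand.

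Among the genes of iron and heme transport, TFRC, the transferrin receptor, was at 29.4, 38.2 and 37.4 FPKM against 36.3, 35.4 and 33.5 FPKM, and HMOX1, which releases iron from heme, at 7.12 ± 0.833 against 6.48 ± 0.736 FPKM (SD, n = 3). Neither was called. SLC40A1, the iron exporter ferroportin, was at 0.284, 0.521 and 0.691 FPKM against 0.136, 0.121 and 0.206 FPKM, lower in every MPM-1 library but not called (log2 fold change -1.52 ± 0.41 SE; adjusted p = 0.0107, edgeR's quasi-likelihood test, Benjamini-Hochberg). It was called lower with DESeq2, with library size alone and without DMSO replicate 1, at -1.78 to -1.5. STEAP1, of a family of metal reductases, was called higher at 1.40 ± 0.36 (SE) but lost the call in 8 of 15 settings at 0.92 to 1.5, among them without DMSO replicate 1 or 2 and without MPM-1 replicate 1 or 2. FLVCR2, a heme and choline transporter, fell from 1.32 ± 0.175 to 0.408 ± 0.0288 FPKM, and TTLL5 and ERG28 overlap it.

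Counting each gene once, the 8 lists held 200 genes besides LCN2, of which 97 were measured, 17 called higher and 11 lower. Their median log2 fold change was 0.18. Over all genes 5.58% were called higher and 8.75% lower, with a median of -0.03. No measured gene of the 8 lists other than CAMP had a log2 fold change as large as that of LCN2.

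Of the epithelial marker genes, EPCAM was at 424, 394 and 382 FPKM in DMSO and at 368, 347 and 365 FPKM after MPM-1, and KRT8 at 2123.6 ± 164 against 2517.3 ± 133 FPKM (SD, n = 3), and neither was called. Of 10 markers of colon epithelium 9 were measured, none was called higher and 2 lower, against 5.58% and 8.75% of all genes. CDX2, an intestinal transcription factor, fell from 20.8 ± 1.24 to 4.07 ± 1.03 FPKM, and KRT20, a keratin of differentiated colonocytes, from 6.50 ± 1.19 to 1.42 ± 0.149 FPKM. CDX2 thus ended below the median gene, at 6.7 FPKM after MPM-1, whereas KRT20 was below the median of 7.6 FPKM already in DMSO. CDX1, another intestinal transcription factor, was at 61.2 ± 0.772 against 27.9 ± 1.97 FPKM and VIL1, the microvillus protein villin, at 39.4 ± 2.74 against 19.5 ± 0.653 FPKM (SD, n = 3), lower in every MPM-1 library. At log2 fold changes of -0.98 and -0.88 they missed the limit, but CDX1 was called lower in 5 of 15 settings (-1.14 to -1.02), among them without MPM-1 replicate 3, and VIL1 in 3 (-1.03 to -1.01). KRT19, at 0.89, was called higher without DMSO replicate 1, at 1.02. Of 8 markers of leukocytes, endothelium, fibroblasts and liver 2 were measured, COL1A1 and CD14, and both were lower after MPM-1, with calls that were lost without single libraries at -2.14 to -1.97 and -1.32 to -1.30. Their summed level was 4.96 to 5.88 FPKM in DMSO and 1.10 to 2.59 FPKM after MPM-1. COL1A1 lost its call without any 1 of the DMSO libraries or without MPM-1 replicate 3, and CD14 without DMSO replicate 2 or 3.

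No measured gene of the chromosomal neighbourhood rose as much as LCN2. Of 29 annotated genes lying within 250 kb of LCN2, 16 were measured, 3 were called higher and none lower. Over all genes 5.58% were called higher and 8.75% lower. The median log2 fold change of the 16 was 0.26, beside -0.03 over all genes, and the range was from -0.67 (NAIF1) to 2.68 (PIP5KL1). The nearest measured genes were PTGES2, a prostaglandin E synthase that ends 20.6 kb before LCN2 (chr9:128120693-128128462), C9orf16, which starts 6.8 kb after it (chr9:128160260-128163928), and CIZ1, 12.6 kb after it. PTGES2 was at 36.4, 37.3 and 39.6 FPKM in DMSO and at 35.4, 34.7 and 39.2 FPKM after MPM-1. C9orf16 was at 225, 181 and 203 against 205, 225 and 214 FPKM. In FPKM the libraries of the treatments overlapped for both, whereas in CPM every MPM-1 library of C9orf16 lay above every DMSO library. None of the 3 genes was called, at log2 fold changes of 0.12 ± 0.08, 0.23 ± 0.10 and 0.00 ± 0.11 (SE).

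The 3 neighbours called higher all lay before LCN2. SLC25A25, a calcium-dependent mitochondrial ATP and phosphate carrier, ends 39.8 kb before it and was at 15.9, 11.4 and 13.5 FPKM in DMSO and at 47.0, 39.1 and 45.7 FPKM after MPM-1, a log2 fold change of 1.85 ± 0.13 (SE; adjusted p = 5.58e-06, edgeR's quasi-likelihood test, Benjamini-Hochberg). Antisense genes overlap it, and strand use in counting is not given in the sources used here. FAM102A, 169 kb before LCN2, went from 13.9 ± 1.72 to 47.3 ± 6.46 FPKM, and PIP5KL1, 218 kb before it, from 1.15 ± 0.381 to 6.70 ± 1.65 FPKM (SD, n = 3). Measured genes between these and LCN2 stayed uncalled, among them NAIF1 at -0.67 ± 0.18 (SE).

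**Figure D5:**
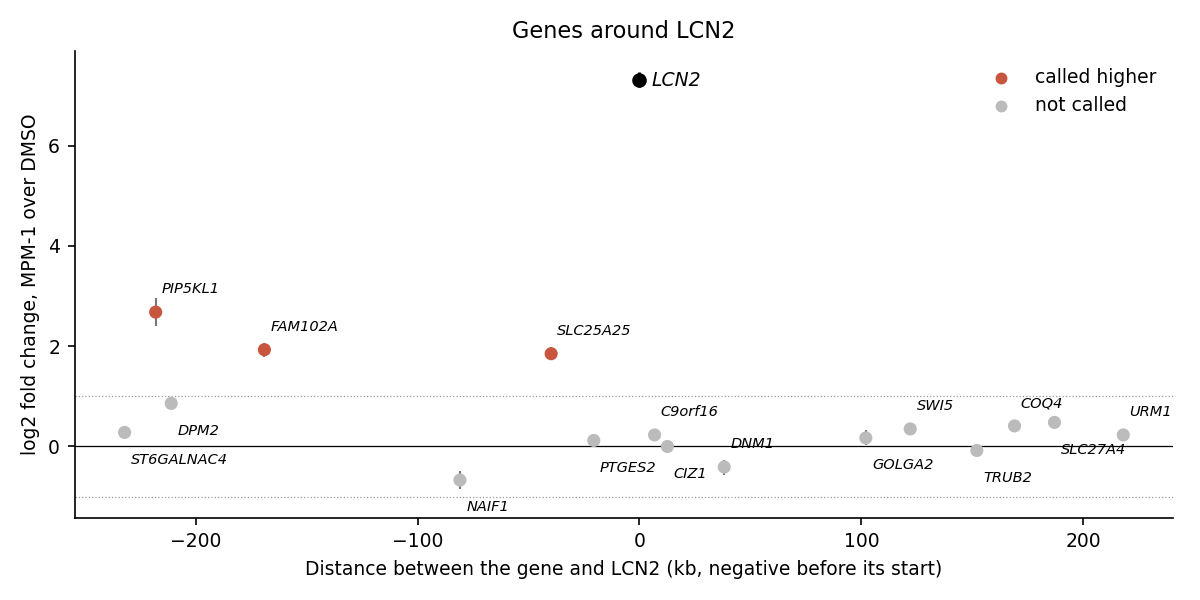
log2 fold change with its SE for LCN2 (black) and the 16 measured genes within 250 kb, against their distance from LCN2 in kb, negative before its start, with dotted lines at -1 and 1. SLC25A25, FAM102A and PIP5KL1 (red) were called higher at 1.85 to 2.68, and the genes in gray were not called.

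The genes whose pattern over the 6 libraries was most like that of LCN2 were sought among the 12813 genes whose mean level reached 1 CPM. By Pearson's r of log2 CPM they were PRSS2 (0.9998), SH3KBP1 (0.9997), CTSL, the lysosomal cathepsin L (0.9996), ITGB4, the β4 integrin (0.9995), and NAMPT, which makes nicotinamide mononucleotide (0.9994). With 6 libraries in 2 treatments such an r mostly restates a difference between treatments. For 376 genes r was at least 0.99 and for 2561 at least 0.9. The log2 fold changes of the 5 genes were far smaller than that of LCN2, from 0.93 for ITGB4, which was not called, to 4.74 for PRSS2, and NAMPT went from 40.7 ± 0.113 to 150 ± 3.30 FPKM (SD, n = 3).

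When the size of the difference counted as well, by the root mean square difference of log2 CPM after centring each gene, the closest were OLAH (0.36), NewGene_8386 (0.47), EBF2 (0.63), OSCAR (0.77) and KLHDC7B (0.78). None of the 5 is among the 5 of the correlation. OLAH had 2, 0 and 0 counts in DMSO and 220, 345 and 263 after MPM-1, so its likeness rests on a level in DMSO that was at the limit of counting.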

How the data were processed

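SW480 cells were treated for 24 h with DMSO or MPM-1, with 3 libraries each, grouped by the sample labels. The authors deposited 1 table with the count and the FPKM of each gene in each library, together with their own comparison of the treatments, a log2 fold change and a p-value adjusted as FDR, which were not used. The submitters' processing notes name HISAT2, DESeq2 and the build mm10, although the identifiers are human, and the steps and annotation are otherwise not given in the sources used here. Library totals were 31733667 to 40269820 counts, so 3 counts were 0.0695 to 0.0985 CPM. Same-treatment libraries differed by more than sampling noise (chi-square per gene 15.4 to 33.3).

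Counts were tested with edgeR 4.0.16 in R 4.3.3 (TMM, quasi-likelihood, no covariates), and CPM used the same scaling. The filter on low counts removed none of the 12982 genes, whose totals were at least 115. Alternatives used DESeq2 1.42.0 and limma 3.58.1. Log2 CPM for likeness had a prior count of 2. Of the genes, 12127 had Ensembl identifiers, all placed by GENCODE release 29 on GRCh38. Promoters came from RefSeq.

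LCN2, the 10 gene lists (written from general knowledge) and the rule for named genes were chosen with earlier results of these data known. The rule took LCN2, its 5 neighbours on each side by log2 fold change, the 5 next largest rises above 3 counts, the 5 most like genes by each of 2 measures, 2 neighbours by level on each side, the 3 largest called rises and falls per list, set regulators and partners, and genes within 250 kb. ANXA1, UPP1, SDCBP2, FTL, the genes with the largest gains and the further list genes were named after their values were seen. A few genes are not reported here.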

Additional observations from a re-analysis of the deposited data

How the results depend on the processing

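The rise of LCN2 had the same direction in the 15 alternative settings. Its log2 fold change was 7.19 to 7.47 with each library left out and 7.33 with the replicate block, and moved by over 1 SD only with limma on log2(FPKM + 1), to 6.89, a scale that understates changes of low genes. Its rank by rise, 7, went to 3 with limma and a pseudocount of 0.01, and to 1 with 0.1 and 1. Limma ranked only 11497 of the 12982 genes, as those with low FPKM were dropped. The move from 7 can therefore not be put down to the pseudocount alone. With that gene set unchanged, raising the pseudocount took the rank from 3 to 1. The rank went to 4 with a mean of at least 50 counts, which removes genes with few counts. It went to between 7 and 10 with a library left out. Among genes with more than 3 counts in every DMSO library used, a restriction added after seeing the data, it was 1 in all settings. Its rank by level after MPM-1, 138, was 127 with annotated lengths, over 12127 genes, and 135 to 138 with a library left out. In DMSO it was 8610 with annotated lengths and 7969 to 8600 with a library left out.

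Genes called higher and lower were 725 and 1136. Limma, over 11497 of the 12982 genes, gave 454 higher at 0.01, 445 at 0.1 (1095 lower) and 351 at 1 (716 lower). With a library left out 674 to 791 were higher and 935 to 1181 lower. Library size alone gave 537 and 1470 and moved the median of all genes to -0.18 from -0.03. The replicate numbers did not pair the libraries (correlations of deviations 0.0214, 0.114 and -0.0737), and the replicate block gave 712 and 1120. Limma tested only 82 of the 97 list genes, so a call absent there may be a gene that was not tested. Of the list genes, 17 higher became 11 with limma at 1, and 14 to 18 with a library left out. The 11 lower became 6 with limma at 0.01 and at 0.1, 4 at 1, and 9 to 11 with a library left out. Of the genes most like LCN2, the root mean square measure shared 0 of 5. LIF, IL1R1 and CXCL1 lost their calls with limma at 1 only, at 0.98, -0.98 and -0.99. Of 165 named genes, 62 were called, 49 of them in every setting that tested them. Limma did not test all of the named genes. Depth limits genes with few counts, such as IL1A with 9 in 1 DMSO library.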
